A study of Mus musculus with 24 samples.

Results

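The contrast taken here set pyramidal neurons of field CA1 against those of field CA3 within each library of single-nucleus sequencing of the ventral hippocampus of adult male mice. For every library the counts of the 3 CA1 clusters (named Galntl6, Fras1 and Camk2d for a gene that marks each) were summed and compared with the counts of the single CA3 cluster. The libraries came from 2 inbred strains, C57BL/6J (B6) and DBA/2J (D2), with 4 libraries for RNA (snRNA-seq) and 4 for open chromatin (snATAC-seq), 2 of each strain. The labels name no transgene or treatment, and each library held tissue pooled from about 2 animals aged 10 to 16 weeks. In snRNA-seq, 6060 CA1 nuclei and 2191 CA3 nuclei were used of 30880 nuclei of all cell types, and 23695 of 33902 gene symbols had counts in both strains. In snATAC-seq, 8882 CA1 and 4008 CA3 nuclei were used of 27206, over 300819 peaks. The 16 methylation samples of the series, which cover further strains, were not analysed here.

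CA3 pyramidal neurons receive the mossy fibres of dentate granule cells and excite one another through recurrent collaterals. They send the Schaffer collaterals to CA1, whose pyramidal neurons pass activity on to the subiculum, the cortex, the amygdala and other targets. Fibcd1, which encodes a membrane protein with a fibrinogen-like domain, is a marker of CA1. Bok, which encodes a member of the Bcl-2 family of apoptosis regulators, is a marker of CA3.

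The clusters were made by the authors from the same snRNA-seq counts, and the snATAC-seq nuclei took their names from snRNA-seq through accessibility over genes. A test between CA1 and CA3 therefore measures how evenly a difference recurs over libraries, and it is not independent evidence that the fields differ. CA1 sums held 12303269 to 15368440 RNA counts and CA3 sums 4267129 to 7195661, with 29836947 to 41446767 and 14193352 to 21265101 for chromatin. Counts per CA1 nucleus were 0.883 to 0.919 of those per CA3 nucleus in RNA and 0.889 to 0.916 in chromatin. Values are therefore given as CPM, the counts scaled to a common total of 1000000 in each sum. For single genes and peaks, the CA1 and CA3 totals were also adjusted by the scaling factors of the main test. In such sums, more nuclei that express a gene and more RNA per nucleus cannot be told apart.

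The labelled markers are described first. They are no independent check of the cluster names, which the authors gave from marker genes of the same counts. The marker lists were also chosen with earlier results of these data known. Fibcd1 (chr2:31813290-31846005, mm10) stood at 58.2 and 43.6 CPM in the CA1 sums of the B6 libraries, and at 44.3 and 35.7 CPM in those of the D2 libraries. In CA3 it stood at 4.04 and 4.72 CPM in B6 and at 4.24 and 5.86 CPM in D2. All CA1 values lay above all CA3 values, with a log2 difference of 3.32 ± 0.14 (standard error from the fitted model, n = 4 libraries, edgeR quasi-likelihood test, adjusted p = 4.279e-09). Bok (chr1:93685660-93695764) had 3.94, 2.59, 3.17 and 3.85 CPM in CA1 against 15.1, 17.7, 15.9 and 13.8 CPM in CA3, in the same order of libraries. Its difference was −2.21 ± 0.16, where a negative sign means higher in CA3, and again the fields did not overlap. Of the 8 CA1 markers, 7 were higher in CA1. The exception, Spink8, had 20.9 to 27.6 CPM in CA1 and 16.8 to 24.4 CPM in CA3 and a difference of 0.15 (adjusted p = 0.181). With the Galntl6 cluster alone as CA1 it was higher in CA1 (0.52, adjusted p = 0.000251), and with the Camk2d cluster alone it was higher in CA3 (−0.45). All 11 CA3 markers that could be tested were higher in CA3. The protein kinase C gene Prkcd, also on that list, never reached more than 7 counts and was not tested. The CA1 list summed to 706 to 763 CPM in CA1 and 127 to 133 CPM in CA3. The CA3 list summed to 458 to 572 CPM in CA1 and 2675 to 3013 CPM in CA3, and no member of either list was at 0 in every library.

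Over all transcripts, 5947 of 16116 tested (36.9%) differed between CA1 and CA3 at an adjusted p under 0.05. Of these, 3042 (18.9%) were higher in CA1 and 2905 (18.0%) higher in CA3. The 4 CA1 and 4 CA3 sums did not overlap for 24.9% of transcripts, and 10.5% were called with a difference of at least 1 on the log2 scale. These shares are the background for the counts of gene lists that follow.

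The transcripts with the largest differences at a mean of at least 5 CPM included transcription regulators, a matrix protein, and noncoding RNAs that lie beside other genes of the group. Fn1, which encodes the matrix protein fibronectin, had 45.4, 51.9, 57.0 and 54.9 CPM in CA1 and 0.721 to 1.22 CPM in CA3. Mpped1, a gene for a metallophosphoesterase, had 189 to 226 CPM in CA1 and 3.67 to 5.90 CPM in CA3. Its neighbour Efcab6, which encodes an EF-hand protein, lies 8218 bases away and differed by nearly the same amount, 5.49 ± 0.12 beside 5.41 ± 0.09 for Mpped1. Tox2, an HMG-box transcription factor, differed by 5.34 ± 0.16. C1qtnf7, a gene of the C1q and TNF-related family, differed by 5.22 ± 0.17 and the noncoding Gm15866, which runs antisense within it, by 6.99 ± 0.30. Gm15866 had no count in CA3 of either D2 library, so its fitted difference depends on how counts of 0 are handled.

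A group of 4 neighbouring transcripts on chromosome 4 was high in CA1. Pou3f1 (chr4:124656807-124660655), a POU-domain transcription factor, had 21.9, 18.1, 24.1 and 28.9 CPM in CA1 against 0.577, 1.05, 1.11 and 0.703 CPM in CA3. The antisense transcript Gm2164, which overlaps it, had 371, 350, 272 and 265 CPM in CA1 against 4.76, 5.59, 3.50 and 3.28 CPM in CA3. Every one of these CA1 values was far above the CA3 values, with differences of 4.72 ± 0.18 for Pou3f1 and 6.19 ± 0.08 for Gm2164. The noncoding 4933407E24Rik and 1700057H15Rik of the same stretch differed by 6.55 ± 0.18 and 5.68 ± 0.33. The latter was unequal between strains in CA1, with 1.77 and 1.89 CPM in B6 and 19.6 and 21.4 CPM in D2. Farther along, differences were small. Utp11, the next gene after Pou3f1 (0.20, adjusted p = 0.0427), and the Eph receptor gene Epha10 (0.32, adjusted p = 0.00751) were higher in CA1, while the splicing factor gene Sf3a3 (0.18, adjusted p = 0.195) and the phosphatase gene Inpp5b (0.06, adjusted p = 0.57) missed the threshold.

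The largest differences toward CA3 included membrane proteins, a lipid enzyme and olfactory receptors. Tspan18, a tetraspanin, had 139 and 141 CPM in CA3 of B6 and 73.5 and 63.5 CPM in CA3 of D2, while CA1 had 3.60, 4.27, 1.55 and 1.44 CPM. Vgll3, a cofactor of TEAD transcription factors, had 38.4 to 69.8 CPM in CA3 and 1.15 to 1.47 CPM in CA1. Hpgd, which encodes the enzyme that inactivates prostaglandins, had 13.5 to 26.0 CPM in CA3 and 0.350 to 0.562 CPM in CA1. These were non-overlapping in all libraries, with differences of −5.26 ± 0.09, −5.33 ± 0.12 and −5.26 ± 0.19. Myof, which encodes the membrane repair protein myoferlin, differed by −5.55 ± 0.17. Naa11, an N-terminal acetyltransferase gene, and the noncoding 4930467D21Rik, whose annotated ends lie 38 bases apart on chromosome 5, differed by −5.64 ± 0.15 and −5.72 ± 0.15. Naa11 had 104 to 157 CPM in CA3, 1.05 to 4.01 CPM in CA1 and 8.46 to 31.6 CPM in dentate granule neurons.

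Also on the CA3 side were the olfactory receptor genes Olfr78, Olfr33 and Olfr553, which lie near each other on chromosome 7. Olfr78 had 32.0 and 34.6 CPM in CA3 of B6 and 6.82 and 5.62 CPM in CA3 of D2, against 0.0675 to 0.770 CPM in CA1. Olfr33 had 34.6, 46.7, 5.53 and 5.39 CPM in CA3 and no count in CA1 of either D2 library. Both genes were higher in CA3 in every library and had higher levels in B6 than in D2. Olfactory receptors are a large family of similar sequences, so the share of reads that belongs to each is uncertain. The noncoding Gm48762 and 1700022H16Rik, which are neighbours on chromosome 12, differed by −5.10 ± 0.20 and −4.90 ± 0.24. The symbol Gm34567 (−5.88 ± 0.19) could not be placed on a single gene of the annotation, and Gm48893, on the CA1 side (5.53 ± 0.25), is a noncoding RNA of chromosome 10.

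**Figure D1:**
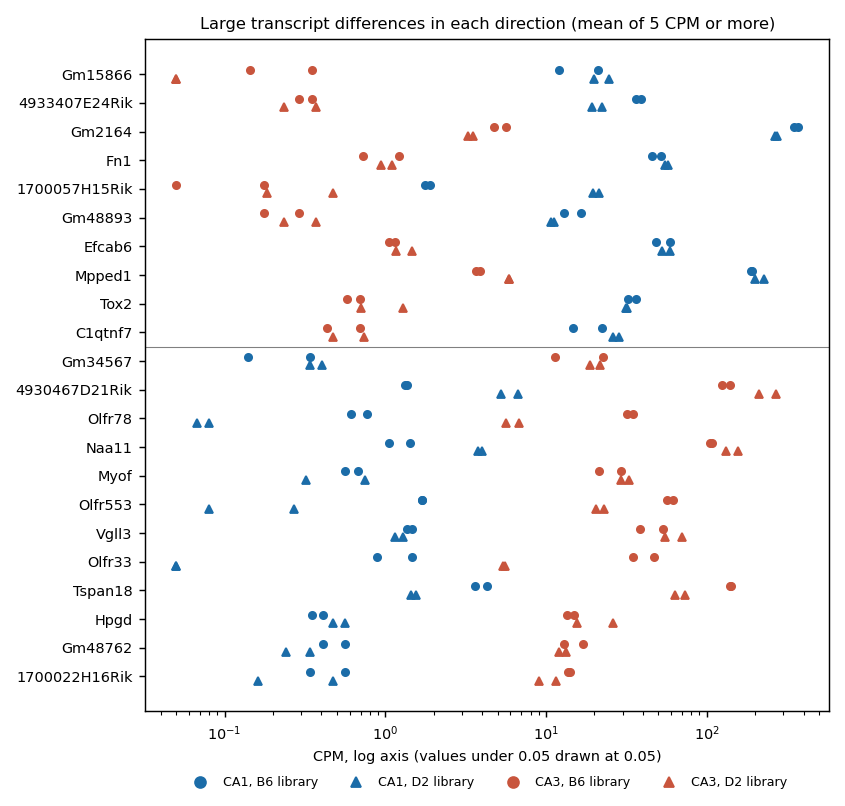
CPM (log axis) of transcripts with large differences at a mean of at least 5 CPM, 10 higher in CA1 and 12 higher in CA3, one point for each field and library. Blue points (CA1) and red points (CA3) do not overlap in any row, and 1700057H15Rik, Olfr78 and Olfr33 also show a gap between B6 libraries (circles) and D2 libraries (triangles).

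The CA1 sum mixed 3 clusters whose shares of CA1 RNA counts were 46.3 to 52.9% for Galntl6, 25.5 to 29.8% for Fras1 and 17.3 to 27.3% for Camk2d. In chromatin these shares were 47.15 to 61.05%, 19.8 to 25.2% and 19.1 to 28.0%. Several large differences were carried by part of these clusters. Gm48893 had 17.7 to 32.1 CPM in the Fras1 cluster and 12.8 to 28.2 CPM in the Camk2d cluster, but 0.573 to 1.49 CPM in the Galntl6 cluster. Fn1 had 134 to 197 CPM in the Fras1 cluster and 16.6 to 36.6 CPM in the Camk2d cluster. In the Galntl6 cluster Fn1 had 0.690 to 2.29 CPM, which is near its level in CA3. Fn1, the neuropeptide gene Nts, the glutamate transporter gene Slc17a6 and the Notch-like gene Dlk1 formed the list of subiculum markers. All 4 were higher in CA1, and their sum was 221 to 269 CPM in the Fras1 cluster, 27.9 to 62.0 CPM in the Camk2d cluster, 5.66 to 8.02 CPM in the Galntl6 cluster and 2.81 to 4.42 CPM in CA3. No cluster of the tables is named for the subiculum. Fibcd1 itself had 5.08 to 11.8 CPM in the Fras1 cluster, so the marker that names CA1 was low where the subiculum list was high.

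The Camk2d cluster stood apart in the opposite way. Pou3f1 had 0.838 to 2.23 CPM there, against 22.3 to 36.4 CPM in the Galntl6 cluster and 21.9 to 45.5 CPM in the Fras1 cluster. Gm2164 had 10.2 to 17.9 CPM in the Camk2d cluster against at least 341 CPM in the others. C1qtnf7 lay mainly in the Camk2d cluster, at 71.2 to 81.8 CPM, against 1.35 to 6.88 CPM in Galntl6 and 3.27 to 15.0 CPM in Fras1. Likewise Gm15866 had 54.2 to 71.5 CPM in the Camk2d cluster and 1.97 to 9.57 CPM in the others. Wfs1, which encodes wolframin of the endoplasmic reticulum, reached 25.6 to 46.4 CPM in the Camk2d cluster, and with the Fras1 cluster alone its difference was 0.43 and missed the threshold. Mpped1 was alike in the 3 clusters, at 170 to 235 CPM. Excitatory clusters outside the contrast, named ENT, Cdh12 and Gpc6, had 100 to 173 CPM of Mpped1, so it was not particular to CA1. Pou3f1 had 18.3 to 72.3 CPM in Cdh12 and Gpc6 but 0.312 to 2.4 CPM in ENT. Fibcd1 was at 0.937 to 6.93 CPM in all 3. Of the CA3 markers, Grik4 had 535 to 608 CPM in Gpc6 and Trps1 302 to 845 CPM in Cdh12. Bok was at 2.11 to 9.55 CPM in all 3. Whether nuclei of neighbouring regions took part in the CA1 clusters was not tested.

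**Figure D2:**
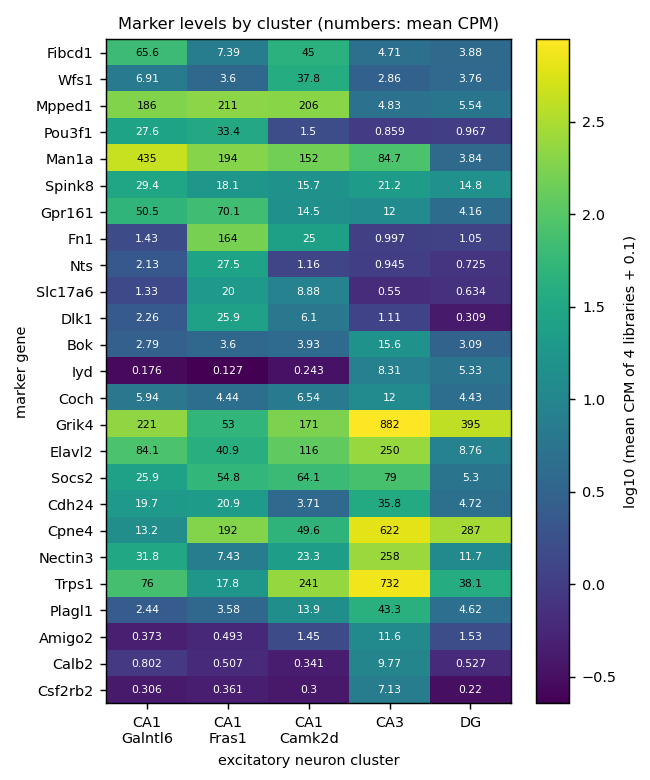
Mean CPM of 4 libraries (printed in each cell, colour on a log10 scale with 0.1 added) for 7 CA1 markers, subiculum markers, CA3 markers and the CA2 and mossy cell markers with the largest differences (rows) in the 3 CA1 clusters, CA3 and dentate granule neurons (columns). Fn1, Nts, Slc17a6 and Dlk1 are highest in the Fras1 cluster, Wfs1 is highest in the Camk2d cluster, and Amigo2, Calb2 and Csf2rb2 are highest in CA3.

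On the CA3 side, some markers of 2 neighbouring cell types were higher than in CA1. Amigo2, an adhesion protein gene used as a marker of CA2, had 8.36, 12.6, 9.22 and 16.2 CPM in CA3 against 0.562 to 0.809 CPM in CA1 (−4.00 ± 0.23). The CA2 list was divided, with Amigo2 and Necab2 higher in CA3 and Rgs14 higher in CA1 (1.17 ± 0.13). The other 2 of 5 tested were below the threshold, and Necab2 missed it with the Camk2d cluster alone (−0.098, adjusted p = 0.506). Cacng5 and Avpr1b, also on that list, reached at most 11 and 2 counts in any sum and were not tested. Calb2, which encodes calretinin and marks mossy cells of the hilus, had 7.73 to 12.2 CPM in CA3 and 0.540 to 0.770 CPM in CA1 (−3.95 ± 0.20). Csf2rb2, a cytokine receptor subunit gene of the same list, differed by −4.51 ± 0.43. The whole mossy cell list summed to 59.1 to 75.4 CPM in CA3 and 54.7 to 59.1 CPM in CA1, most of it from Ajap1, whose difference was 0.21 ± 0.05. Ajap1 missed the threshold by DESeq2 (adjusted p = 0.133) and with the Fras1 (adjusted p = 0.0591) or Camk2d cluster alone (adjusted p = 0.738). Drd2, a dopamine receptor gene of the list, was higher in CA3 over the CA1 sum (−0.81 ± 0.23), missed the threshold by DESeq2 (adjusted p = 0.0968) and without B6 library 2 or 3 (−0.73 and −0.75), and was higher in CA1 with the Camk2d cluster alone (1.05). Tables used here hold no cluster named for CA2 or for mossy cells, and their part in the CA3 values was not tested. Among the lists of other cell types, astrocyte markers summed to 25.3 to 28.0 CPM in CA1 and 30.8 to 36.3 CPM in CA3, and interneuron markers to 6.83 to 9.79 and 6.67 to 8.66 CPM. Oligodendrocyte markers summed to 91.1 to 148 CPM in CA1 and 73.4 to 116 CPM in CA3, microglia markers to 174 to 240 and 218 to 298 CPM, and vascular markers to 5.83 to 7.62 and 10.4 to 15.4 CPM. The only microglia marker past the threshold was P2ry12 (−0.46 ± 0.04), which lies on the opposite strand within Med12l. Part of the vascular sum was Pdgfrb, which encodes a growth factor receptor of pericytes and was higher in CA3 (−1.66 ± 0.18). The dentate granule list, at 357 to 479 CPM in granule neurons, summed to 6.96 to 11.4 CPM in CA1 and 7.92 to 10.0 CPM in CA3. Of 6 general pyramidal markers, Slc17a7 was higher in CA3 by a small amount (−0.15 ± 0.04), which missed the threshold without B6 library 2 (−0.13, adjusted p = 0.0516), and the other 5 missed it.

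Lists of genes for receptors, channels, adhesion and transcription held many differences in both directions. Over 20 lists, 343 of 359 members passed the filter on low counts, and 166 were higher in CA1 and 104 higher in CA3. That is 78.7% called, against 36.9% of all transcripts and 56.5% of the 3642 transcripts with at least 50 CPM. Their median absolute log2 difference was 0.58, against 0.21 over all transcripts and 0.17 over those with at least 50 CPM. Members were chosen with earlier results of these data known, so these comparisons with the background are descriptive only. List counts are for the CA1 sum, and some depended on the cluster taken as CA1. With Fras1 alone, 6 calcium channel genes were higher in CA1 and 7 in CA3. With Camk2d alone, calcium and cyclic nucleotide signalling genes gave 5 and 10. With Galntl6 alone, ephrins and Eph receptors gave 5 and 7. Ionotropic glutamate and GABA receptors leaned toward CA1 with each cluster.

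Among ionotropic glutamate receptors, which open ion channels on binding glutamate, 11 of 16 tested were higher in CA1 and 5 in CA3 (median 0.29, against 0.01 for all transcripts). Grik4, which encodes the high-affinity kainate receptor subunit GluK4, had 913, 820, 950 and 846 CPM in CA3 and 147, 127, 199 and 189 CPM in CA1. Grin3a, the gene of the NMDA receptor subunit GluN3A, had 114, 115, 145 and 159 CPM in CA1 and 22.1, 28.5, 24.9 and 28.8 CPM in CA3. The fields were well separated for both genes, by −2.43 ± 0.08 and 2.34 ± 0.08. Grik3 and Grik1, genes of further kainate receptor subunits, were higher in CA1 by 1.93 and 1.43. With the Galntl6 cluster alone the Grik3 difference was 0.27 and missed the threshold. Of the auxiliary proteins that bind AMPA and kainate receptors, 5 of 13 were higher in CA1 and 4 in CA3. Gsg1l (3.35 ± 0.12), Cnih3 (2.77 ± 0.08) and Cacng3 (1.98 ± 0.15), all AMPA receptor partners, were higher in CA1. Neto1, an auxiliary protein of kainate receptors named after its values were seen, was higher in CA3 (−1.33 ± 0.04). Gsg1l had 60.6 to 134 CPM in the Camk2d cluster against 3.69 to 11.5 CPM in the others.

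Metabotropic glutamate receptors, which act through G proteins, had 4 of 7 members higher in CA1 and 1 higher in CA3. Grm8 had 324 to 366 CPM in CA1 and 52.3 to 70.4 CPM in CA3 (2.44 ± 0.06). Its CA1 level lay in the Fras1 cluster (737 to 898 CPM) and the Camk2d cluster (238 to 429 CPM), since the Galntl6 cluster had 55.5 to 79.6 CPM. All 14 GABA receptor genes differed, 9 toward CA1 and 5 toward CA3. Gabra3 and Gabrd, genes of GABA-A receptor subunits, were higher in CA1 by 2.53 ± 0.08 and 2.15 ± 0.21. Gabrb1, named after its values were seen, went the opposite way at 1059 to 1108 CPM in CA1 and 1504 to 1767 CPM in CA3.

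Potassium channels set the resting and firing properties of neurons, and 17 of 30 tested voltage-gated members were higher in CA1 and 9 in CA3. Kcnh7, which encodes an Erg-type channel, had 1117, 1029, 715 and 731 CPM in CA1 and 43.8, 67.6, 39.1 and 63.0 CPM in CA3. Kcnq5, whose channel carries M-type current, had 692, 710, 682 and 673 CPM in CA1 and 3769, 3544, 3920 and 3833 CPM in CA3. The differences were 4.09 ± 0.14 and −2.45 ± 0.04, in opposite directions within the list. Dpp10 (2.65 ± 0.12) and Kcnip1 (2.61 ± 0.12), which encode partners of A-type channels, were higher in CA1. Dpp10 reached 2201 to 3034 CPM in the Fras1 cluster and missed the threshold with the Galntl6 cluster alone (0.22). Of 15 other potassium channel genes, 9 were higher in CA1, led by the sodium-activated channel gene Kcnt1 (2.71 ± 0.08), and 4 were higher in CA3.

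Pex5l, also called TRIP8b, encodes an auxiliary subunit of the channels that open on hyperpolarisation. It had 1494 to 1847 CPM in CA1 and 334 to 446 CPM in CA3, and was higher in CA1 in all 4 libraries, by 2.17 ± 0.05. Sodium channel genes moved little, with 4 of 8 higher in CA1, 2 higher in CA3 and a largest difference of 0.46 for Scn3a. Calcium channel genes had 8 of 15 members higher in CA1 and 4 higher in CA3. Cacna2d2, an auxiliary subunit gene, led toward CA1 (3.73 ± 0.23), and the T-type channel genes went apart, with Cacna1g at 1.75 ± 0.07 and Cacna1i at −1.38.

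Cell adhesion and guidance genes, which direct axons and match partners at synapses, were also divided between the fields. Cadherins had 11 of 22 members higher in CA1 and 8 higher in CA3. Cdh6 had 64.6, 56.0, 44.3 and 51.8 CPM in CA1 and 1.57 to 3.50 CPM in CA3, and Cdh9 had 74.4 to 121 CPM in CA1 and 417 to 567 CPM in CA3. The differences were 4.47 ± 0.15 and −2.28 ± 0.08, in opposite directions within the family. Among teneurins and their latrophilin and FLRT partners, 8 of 10 were higher in CA1. Tenm3 had 921 to 1126 CPM in CA1 and 90.7 to 127 CPM in CA3 (3.24 ± 0.05), and Adgrl2, the latrophilin 2 gene, 120 to 159 and 6.08 to 10.5 CPM (4.03 ± 0.08). Each of the 3 CA1 clusters was higher than CA3 for both genes, with differences of 3.12 to 3.44 for Tenm3 and 2.88 to 4.50 for Adgrl2.

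Semaphorins and their receptors had 8 of 19 tested members higher in CA1 and 6 higher in CA3. Nrp2, the neuropilin 2 gene, had 33.4 to 43.3 CPM in CA1 and 179 to 259 CPM in CA3, and Sema5a had 6.37 to 8.59 and 43.4 to 72.2 CPM. Both were higher in CA3 in every library, with differences of −2.57 ± 0.06 and −3.15 ± 0.14. The receptor gene Plxnd1 was higher in CA1 (4.01 ± 0.27), with 5.38 to 9.87 CPM there and 0.234 to 0.737 CPM in CA3. Of 16 members of netrin and Slit signalling, 4 were higher in CA1, including the netrin-G1 gene Ntng1 (2.46 ± 0.05) and Lrrc4c, which encodes its ligand (1.97 ± 0.05). The receptor gene Unc5c was among 6 higher in CA3 (−1.40 ± 0.05). Ephrins and Eph receptors had 8 of 18 higher in CA1, led by Ephb3 (1.75 ± 0.17), and 5 higher in CA3.

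The presynaptic release list was nearer to the background, with 11 of 29 tested members higher in CA1, 7 in CA3 and 11 below the threshold. With the Galntl6 cluster alone, 9 were higher in CA1 and 10 in CA3, and with the Camk2d cluster alone 16 and 3. Syt10, Syn3 and Rab3b, genes of a synaptotagmin, a synapsin and a vesicle GTPase, were higher in CA1 by 2.16, 2.12 and 1.89. Syt10 missed the threshold with the Galntl6 cluster alone (0.26, adjusted p = 0.418), which had 1.55 to 6.40 CPM against 16.7 to 41.9 CPM in the Fras1 cluster. Unc13c (1.47 ± 0.14) owed its direction to the Camk2d cluster, which had 116 to 305 CPM, while the Galntl6 cluster (10.3 to 12.2 CPM) and the Fras1 cluster (1.53 to 7.60 CPM) were below CA3 (17.7 to 28.0 CPM). Of 7 tested matrix genes of perineuronal nets, Ncan and Tnr were higher in CA1 and Hapln4, Bcan and Vcan in CA3, with no difference over 1 on the log2 scale. Vcan (−0.57) missed the threshold with any of the 4 libraries left out (−0.67 to −0.42).

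Signalling genes also differed. Nr3c1, which encodes the glucocorticoid receptor, had 95.8, 108, 91.8 and 98.0 CPM in CA1 and 29.6, 37.4, 27.1 and 26.0 CPM in CA3 (1.71 ± 0.07). Nr3c2, the mineralocorticoid receptor gene, named after its values were seen, was higher in CA3 at 797 to 883 CPM against 593 to 665 CPM in CA1 (−0.44 ± 0.04). Its difference was −1.24 with the Camk2d cluster alone and missed the threshold with the Fras1 cluster alone (−0.094, adjusted p = 0.146). In the list of corticosteroid and monoamine receptors to which both belong, 8 of 20 tested members were higher in CA1 and 9 in CA3. The serotonin receptor gene Htr1b (4.43 ± 0.32) and the adrenergic receptor gene Adra1a (4.12 ± 0.17) led toward CA1, and Htr7 (−1.68 ± 0.12) toward CA3. Adra1a had 42.0 to 45.8 CPM in CA1 and 1.30 to 3.87 CPM in CA3. For Htr7 the Camk2d cluster had 19.0 to 29.5 CPM, close to the 28.0 to 36.1 CPM of CA3, and with that cluster alone the difference missed the threshold (−0.38). Among calcium and cyclic nucleotide signalling genes, Calb1, which encodes calbindin, had 29.9 to 45.3 CPM in CA1 and 2.40 to 3.67 CPM in CA3 (3.78 ± 0.13). In that list 10 of 21 members were higher in CA1 and 6 in CA3, and the kinase gene Camk2d (3.49 ± 0.11) was also the name gene of a CA1 cluster, where it reached 401 to 527 CPM. Ntf3, the neurotrophin 3 gene, was higher in CA1 (2.95 ± 0.30), with 29.0 to 39.0 CPM in the Camk2d cluster and 1.76 to 3.20 CPM in the other clusters. Neuregulin 1 (Nrg1) was higher in CA1 (1.70 ± 0.12) and the fibroblast growth factor receptor gene Fgfr1 in CA3 (−1.12 ± 0.08), among 5 members toward each field.

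Transcription factors of forebrain neurons had 22 of 47 tested members higher in CA1 and 12 higher in CA3, and 17 called with a difference of at least 1. St18, a zinc finger factor gene, had 163 to 214 CPM in CA3 and 6.10 to 9.44 CPM in CA1 (−4.59 ± 0.08). Tshz2, another zinc finger factor gene, had 344 to 447 CPM in CA1 and 7.97 to 14.7 CPM in CA3 (5.04 ± 0.10). The Tshz2 level came from the Fras1 and Camk2d clusters, at 430 to 1045 CPM, since the Galntl6 cluster had 6.03 to 20.2 CPM and missed the threshold (0.31). The following factors were named after their values were seen. Pou3f3 and Pou3f2, relatives of Pou3f1, were higher in CA1 by 3.85 ± 0.17 and 2.18 ± 0.41, and so were Bcl11b (3.36 ± 0.06) and Mef2c (1.50 ± 0.05). Zbtb20 (−1.96 ± 0.05) and Zfpm2 (−2.54 ± 0.06) were higher in CA3. The proneural-type bHLH factor genes Neurod2 (0.03, adjusted p = 0.79), Neurod6 (−0.16, adjusted p = 0.0701) and Bhlhe22 (−0.03, adjusted p = 0.922) missed the threshold. For Neurod6 the clusters went apart, with the Galntl6 cluster above CA3 (0.33, adjusted p = 0.000841) and the Fras1 cluster below it (−1.74, adjusted p = 4.598e-09).

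**Figure D3:**
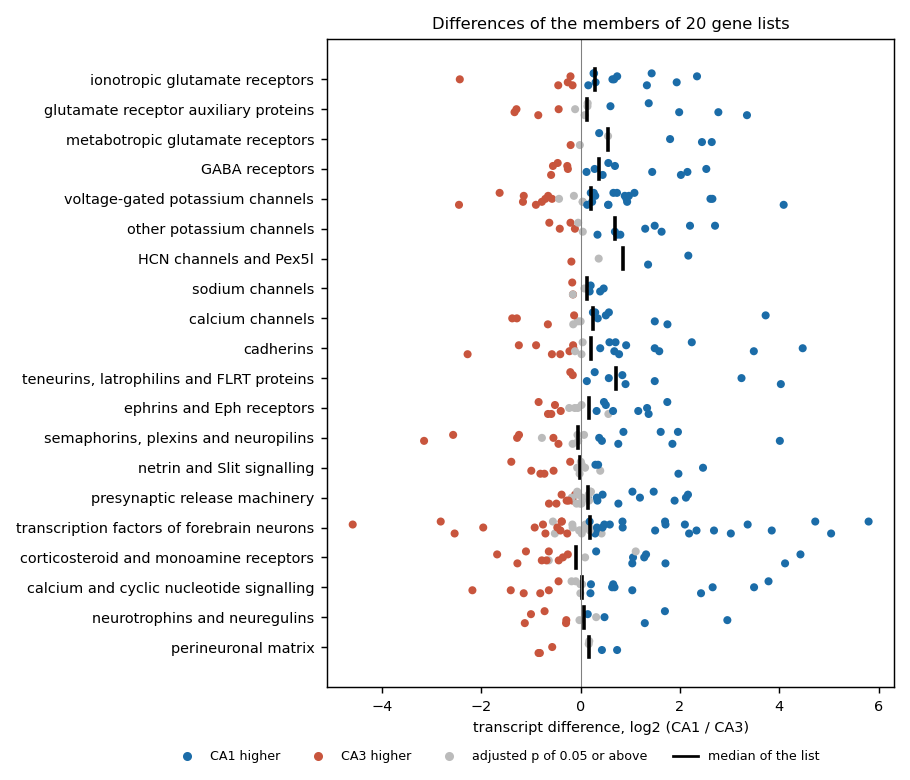
Log2 difference in transcripts between CA1 and CA3 (horizontal axis, positive toward CA1) for each tested member of 20 gene lists (rows), with called members in colour, the others in grey and a black line at the list median. Most lists have called members on both sides of 0, and among the transcription factors St18 stands at −4.59 and Tshz2 at 5.04.

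Chromatin over genes was called more often than transcripts were, but not by large differences. Accessibility of a gene was the sum of counts in peaks over its body and 2 kb upstream. It differed for 18529 of 32724 genes (56.6%), 27.2% toward CA1 and 29.4% toward CA3. With a difference of at least 1 on the log2 scale also required, 3101 of 32724 genes were called, beside 1699 of 16116 transcripts. Of 2947 transcripts higher in CA1, 58.9% had higher accessibility in CA1 and 11.4% in CA3, where the shares over all 15474 genes compared were 30.4% and 26.1%. Of 2813 transcripts higher in CA3, 61.4% had higher accessibility in CA3 and 8.78% in CA1. For transcripts that differed by at least 1 on the log2 scale, the matching shares were 72.4% for CA1 and 82.0% for CA3. Across genes, which are not independent replicates, the differences in transcripts and accessibility had a Spearman rho of 0.453. Since the names of snATAC-seq nuclei came from accessibility over genes, this relation was in part built into the groups.

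Accessibility differences were smaller than transcript differences for several marker genes. Pou3f1 differed by 2.33 in accessibility and 4.72 in transcripts, Pou3f3 by 2.17 and 3.85, and Iyd, a gene for an iodotyrosine deiodinase on the CA3 list, by −2.23 and −5.44. Grik4 had 76 of 91 peaks higher in CA3, where 26.8% of all tested peaks were. For some genes the readouts parted. Grik3 and Dpp10 were higher in CA1 in transcripts but had slightly lower accessibility there, by −0.12 and −0.18. Gabra3 differed by 2.53 in transcripts and −0.01 in accessibility (adjusted p = 0.9), and Coch, a CA3 marker, by −1.02 and −0.02 (adjusted p = 0.895). Spink8, whose transcript missed the threshold, was more accessible in CA1 by 0.43.

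**Figure D4:**
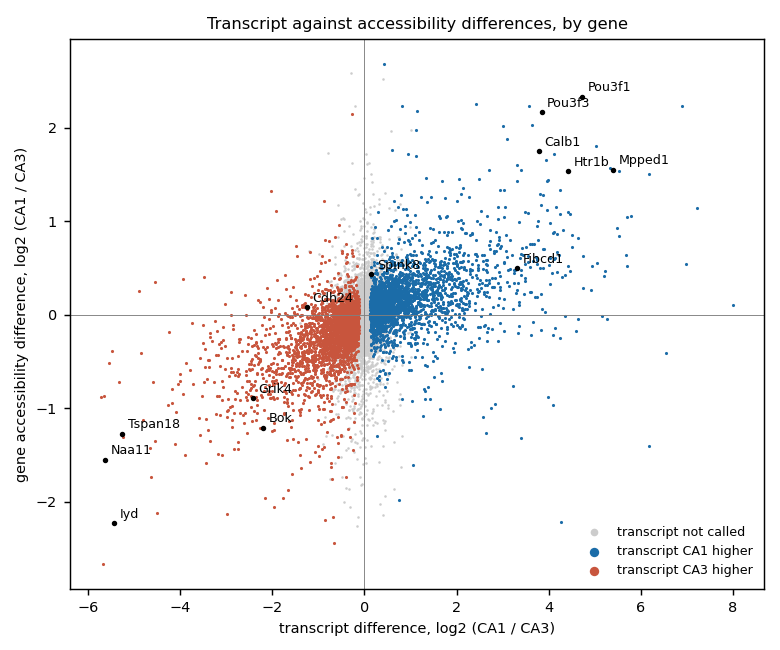
Log2 difference in transcripts (horizontal axis) against log2 difference in gene accessibility (vertical axis), one point a gene, both positive toward CA1. Genes higher in CA1 (blue) lie mostly above 0 on the vertical axis and genes higher in CA3 (red) mostly below it, with a smaller spread in accessibility than in transcripts.

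At single peaks, 161615 of 300819 (53.7%) differed, 26.9% toward CA1 and 26.8% toward CA3. Peaks away from annotated transcript starts differed by larger amounts. Intergenic peaks were called in 58.4% of cases and by at least 1 on the log2 scale in 33.2%. For promoter peaks, within 1000 bases of any annotated transcript start, these shares were 49.4% and 11.8%. Intron peaks were called in 51.8% and exon peaks in 47.7%, the lowest share, and by at least 1 in 24.3% and 19.9%. Median absolute differences were 0.63 for intergenic, 0.50 for intron, 0.41 for exon and 0.23 for promoter peaks. Promoter peaks were also deeper, at a median of 4.11 CPM against 1.32 CPM for intergenic peaks. Promoter peaks leaned toward CA1, with 30.5% higher in CA1 and 18.9% in CA3. That lean rested on small differences, because among promoter peaks called by at least 1, 5.39% were toward CA1 and 6.43% toward CA3.

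Among peaks with a mean of at least 5 CPM, the largest differences between the fields were at distal peaks that were nearly closed in the other field. A peak at chr2:171946441-171947325, 96583 bases from the start of the synaptic organiser gene Cbln4, had 11.6, 12.3, 12.1 and 11.8 CPM in CA1 and 0.773, 0.346, 0.306 and 0.142 CPM in CA3. The peak at chr6:102541705-102542403, in an intron of the contactin gene Cntn3, had 10.3, 9.89, 11.7 and 9.11 CPM in CA1 and 0.207 to 0.551 CPM in CA3. Both were higher in CA1 in every library, by 4.94 ± 0.18 and 4.82 ± 0.18, and the transcripts of Cbln4 (3.07) and Cntn3 (2.57) were higher there too. The other three of the 5 largest toward CA1 at that depth were at chr8:117880881-117881816, chr6:82660060-82660933 (in an intron of Pole4) and chr1:7750265-7751355, and they differed by 4.74, 4.67 and 4.40. Toward CA3, the peak at chr12:42947637-42948270 had 10.1, 11.3, 10.97 and 9.77 CPM in CA3 and 0.320 to 0.736 CPM in CA1 (−4.55 ± 0.16). The peak at chr10:27127148-27127970, in an intron of the laminin gene Lama2, had 9.89 to 12.99 CPM in CA3 and 0.424 to 0.635 CPM in CA1 (−4.47 ± 0.15). The next were a peak within an intron of Onecut2 (−4.46 ± 0.15), one at chr16:46567164-46567823, 68968 bases from the start of Nectin3 (−4.19 ± 0.14), and one at chr10:100617181-100617854 in 1700017N19Rik (−4.14 ± 0.13). Nectin3, an adhesion gene of the CA3 list, was higher in CA3 in transcripts (−3.46 ± 0.07), with 252 to 266 CPM there and 20.4 to 26.6 CPM in CA1. Transcripts of Pole4 (1.11) and Onecut2 (−1.56) also went the way of their peaks. The gene start nearest the Lama2 peak, Arhgap18 at 374138 bases, went the opposite way (3.41). Those nearest the peaks on chr8, chr1 and chr12 were Mphosph6 (0.17, adjusted p = 0.382), Pcmtd1 (0.11, adjusted p = 0.205) and Dnajb9 (0.25, adjusted p = 0.131). These missed the threshold, and 1700017N19Rik was not tested.

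Central windows of 300 bases of the 2 largest peaks in each direction are printed below, with those of the marker peaks of Fibcd1 and Bok, since these are the regions where the fields were most unlike or which carry their markers. Capitals mark the octamer ATGCAAAT, which POU factors bind, and the E-box CAGATG, which bHLH factors bind, on either strand. Sequences are from the plus strand of the GRCm38 reference (RefSeq assembly).
CA1-higher, near Cbln4, chr2:171946733-171947032: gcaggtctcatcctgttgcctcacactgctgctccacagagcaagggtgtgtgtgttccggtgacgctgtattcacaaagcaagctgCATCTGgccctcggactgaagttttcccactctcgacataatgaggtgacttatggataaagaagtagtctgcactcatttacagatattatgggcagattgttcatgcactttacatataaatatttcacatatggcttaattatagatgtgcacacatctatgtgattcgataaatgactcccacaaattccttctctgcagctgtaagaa
CA1-higher, intron of Cntn3, chr6:102541904-102542203: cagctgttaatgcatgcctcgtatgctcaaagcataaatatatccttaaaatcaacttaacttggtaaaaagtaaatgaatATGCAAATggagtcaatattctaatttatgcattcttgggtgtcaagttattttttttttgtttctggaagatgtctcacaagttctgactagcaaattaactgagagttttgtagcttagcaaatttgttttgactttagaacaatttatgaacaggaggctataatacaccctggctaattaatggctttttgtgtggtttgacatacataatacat
CA1-higher, intron of Fibcd1, chr2:31844790-31845089: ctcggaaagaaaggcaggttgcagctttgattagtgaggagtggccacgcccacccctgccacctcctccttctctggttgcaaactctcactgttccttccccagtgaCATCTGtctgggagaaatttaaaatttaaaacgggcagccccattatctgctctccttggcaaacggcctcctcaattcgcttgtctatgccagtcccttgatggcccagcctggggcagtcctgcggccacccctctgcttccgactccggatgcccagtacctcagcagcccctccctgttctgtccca
CA3-higher, intergenic, chr12:42947803-42948102: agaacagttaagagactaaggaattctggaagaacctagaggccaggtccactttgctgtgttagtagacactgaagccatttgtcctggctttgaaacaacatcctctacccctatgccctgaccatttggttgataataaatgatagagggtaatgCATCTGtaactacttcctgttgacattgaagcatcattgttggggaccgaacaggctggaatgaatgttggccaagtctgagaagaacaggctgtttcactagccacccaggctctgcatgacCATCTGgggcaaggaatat
CA3-higher, intron of Lama2, chr10:27127409-27127708: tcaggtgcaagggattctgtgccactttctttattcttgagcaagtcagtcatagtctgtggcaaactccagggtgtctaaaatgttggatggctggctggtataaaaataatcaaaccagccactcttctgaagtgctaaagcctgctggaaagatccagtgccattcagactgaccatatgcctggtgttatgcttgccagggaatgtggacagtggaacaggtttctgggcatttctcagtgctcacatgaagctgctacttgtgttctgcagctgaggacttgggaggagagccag
CA3-higher, intron of Bok, chr1:93691417-93691716: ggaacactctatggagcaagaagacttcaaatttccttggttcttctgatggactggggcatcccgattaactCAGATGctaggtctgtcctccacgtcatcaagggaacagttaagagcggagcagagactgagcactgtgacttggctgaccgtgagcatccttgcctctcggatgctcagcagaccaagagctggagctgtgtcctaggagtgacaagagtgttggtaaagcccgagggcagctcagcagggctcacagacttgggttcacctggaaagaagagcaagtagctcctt

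The window in Cntn3 held 1 octamer, and the window on chromosome 12 held 2 E-boxes. Windows near Cbln4, in Fibcd1 and in Bok held 1 E-box each, and the window in Lama2 held neither motif. The Fibcd1 peak (chr2:31844730-31845150, 1065 bases from the gene start) had 4.57 to 5.31 CPM in CA1 and 1.09 to 1.53 CPM in CA3 (1.93 ± 0.16). With the Fras1 cluster alone its difference was 0.61 and missed the threshold. The Bok peak (chr1:93690945-93692189) had 6.49 to 8.23 CPM in CA1 and 17.7 to 19.9 CPM in CA3 (−1.30 ± 0.07).

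The peak over the start of Pou3f1 (chr4:124656233-124658103) had 41.8, 36.9, 41.5 and 39.0 CPM in CA1 and 8.56, 6.64, 7.66 and 7.64 CPM in CA3 (2.38 ± 0.06). In the Camk2d cluster, where the transcript was low, this peak had 14.5 to 20.7 CPM, against 43.0 to 50.6 CPM in the Galntl6 cluster. Within 300000 bases either side of the gene, 56 of 101 peaks were higher in CA1 and 15 higher in CA3. In Spink8 the called peak of largest difference was higher in CA3 (−1.88 ± 0.22), opposite to the field the gene was listed for. On the CA3 list, such peaks of Coch (0.62 ± 0.17), Cdh24 (0.13 ± 0.05) and Prkcd (0.98 ± 0.27) were likewise opposite, being higher in CA1. Those of the other CA3 genes were higher in CA3.

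Motif letters were counted in the central 500 bases of peaks at least 400 bases wide. The CAGATG E-box was in 54.7% of 58114 CA3-higher windows, 41.8% of 60486 CA1-higher windows and 45.5% of all 200498 windows. The octamer ATGCAAAT went the opposite way, with 5.95% of CA1-higher, 2.79% of CA3-higher and 3.82% of all windows. Its share among CA1-higher windows was thus above that of all windows, as were those of TAAAAATA (MEF2 factors; 8.49%, 6.76% and 7.15%) and TGANTCA (AP-1 factors; 24%, 21.4% and 21.0%), in the same order. TTGGCA, a half-site of NFI factors, was in 36.9% of CA3-higher, 30.4% of CA1-higher and 31.8% of all windows. Outside promoters the E-box shares were 55.8% for CA3-higher and 44.4% for CA1-higher windows, and the octamer shares 2.84% and 6.55%. Median GC content was 45.0% in CA1-higher peaks and 46.2% in CA3-higher peaks and in all tested peaks. Genes of POU, MEF2 and bHLH factors were given above, but no AP-1 factor gene was on the lists. In addition, the NFI factor genes Nfia and Nfib, named after their values were seen, were higher in CA3 (−0.41 and −0.47). For Nfia the direction turned with the Galntl6 cluster alone (0.37).

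**Figure D5:**
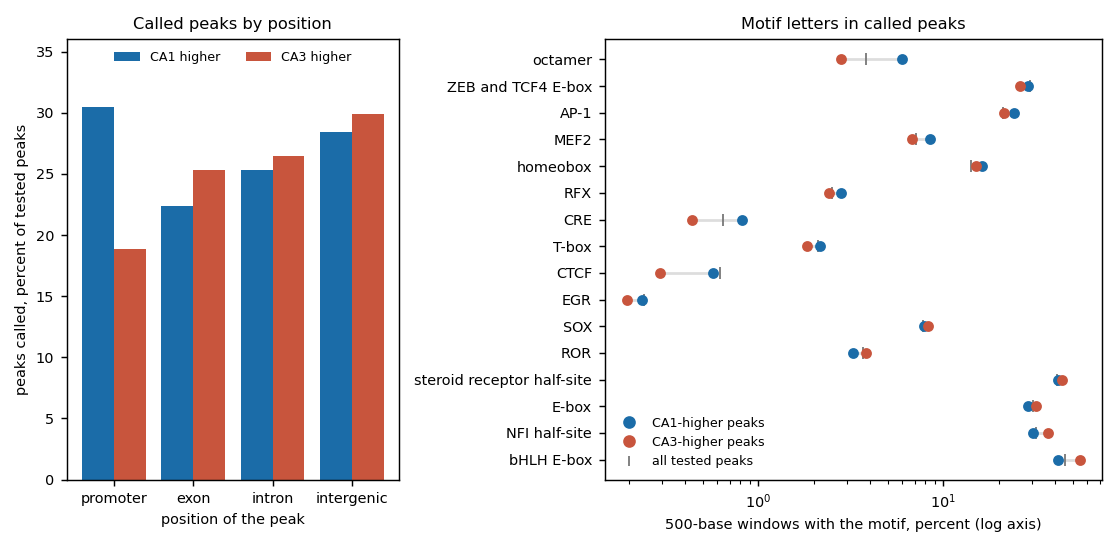
Left, percent of tested peaks higher in CA1 (blue bars) or CA3 (red bars) by position, with the widest gap at promoters, 30.5% against 18.9%. Right, percent of 500-base windows (log axis) that hold each of 16 motifs among CA1-higher peaks, CA3-higher peaks and all tested peaks (grey tick), where the octamer stands at 5.95% and 2.79% and the bHLH E-box at 41.8% and 54.7%.

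The CA1 to CA3 difference itself was compared between strains, as an interaction in the same kind of model. It differed between D2 and B6 for 162 of 16116 transcripts (1.01%) and 1443 of 300819 peaks (0.48%). The make-up of the CA1 sum moved with strain, since the Camk2d cluster gave 17.3 and 24.01% of RNA counts in B6 and 26.7 and 27.3% in D2, and the Galntl6 cluster 61.05 and 50.2% of chromatin counts in B6 and 47.15 and 48.8% in D2. With the Galntl6 cluster alone as CA1, 255 transcripts and 906 peaks were called. The counts were unstable, at 394 transcripts without B6 library 3, 355 without D2 library 2, 68 without the block, and 429 to 657 peaks with 1 library left out. Of the 162 transcripts, 72 were also higher in CA1 and 59 higher in CA3 over both strains, and 87 had the larger difference toward CA1 in D2. Grik4 was higher in CA3 in both strains, with log2 ratios of CA1 to CA3 of −2.66 in B6 and −2.21 in D2, and the strain difference was 0.45 (adjusted p = 0.00414). The pair Naa11 and 4930467D21Rik had log2 ratios of −6.31 and −6.51 in B6 and −5.17 and −5.31 in D2. Reads of the strains were mapped to separate references whose symbol lists were not equal, and a difference of this source cannot be told apart from one of transcription.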

How the data were processed

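Nuclei of the ventral hippocampus were profiled by snRNA-seq, after a sort that enriched NeuN-stained neuronal nuclei, and by snATAC-seq, after a sort on DNA stain alone, with 4 libraries each. The authors mapped RNA with Cell Ranger 6.0.2, intron reads included, and chromatin with Cell Ranger ATAC 2.0.0, to mm10 for B6 and to a copy carrying D2 variants for D2. They filtered nuclei, removed doublets, clustered in Seurat 4.0.5 and deposited raw counts summed per cell type and library, over merged MACS peaks for snATAC-seq. The counting is of a stranded 3′ assay, but overlapping genes and gene families may still share reads.

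Libraries are numbered 2 and 3 in the tables and 1 and 2 in the labels, so columns were placed by strain only. Dentate granule columns gave levels for comparison, and a further 48 columns of RNA and 40 of chromatin were left out of all tests. The excitatory ones among those RNA columns gave marker levels only. Symbols needed a count in both strains, because 7711 were counted in D2 only and 1156 in B6 only. Members and gene lists were chosen with earlier results of these data known.

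The main test was edgeR 4.0.16 (R 4.3.3): TMM, a quasi-likelihood F test of CA1 against CA3 with library as block, and Benjamini-Hochberg adjustment over all features, filtered by filterByExpr for genes and at 10 counts over 8 sums for peaks. Calls used an adjusted p under 0.05. The strain term was an interaction. Standard errors were worked back from the fitted log2 difference and its F statistic. They use variation shared across features and are not the observed spread of 4 paired differences. An exact sign permutation of 4 pairs cannot go below p = 0.125. Biological coefficients of variation were 0.0564 (transcripts) and 0.053 (peaks). The CA1 and CA3 sums of a library come from the same animals, which is what pairs them: their deviations from the strain means correlated at 0.303 and 0.164 over transcripts in B6 and D2, and at 0.0529 and 0.161 over peaks. Levels (CPM) of single features in the CA1 and CA3 sums used totals of the tested features, adjusted by TMM factors (0.966 to 1.05 for transcripts). Levels of single clusters, dentate granule neurons and summed marker lists used plain totals, so the scales differ slightly. Positions come from GENCODE vM21 and sequences from GRCm38, and 261 tested symbols did not match 1 gene.

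Genes were named by rule: the 12 largest called differences in each direction at a mean of 5 CPM with 1 direction in all libraries, up to 4 per list, all CA1 and CA3 markers, and 5 peaks per direction, 1 peak per marker gene, 5 strain transcripts and 3 strain peaks. Alternatives were RLE scaling, no block, DESeq2 1.42.0, other filters, leaving out libraries and single CA1 clusters. The scripts were tested on simulated data. Some items that met these rules are not reported here.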

Additional observations from a re-analysis of the deposited data

Results flagged for a closer look

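The 9 transcripts and 2 peaks described here had a CA1 to CA3 difference that was unlike in the strains, by the interaction test. Its value is the D2 difference minus the B6 difference on the log2 scale, positive where D2 leaned more toward CA1. Groups of 2 libraries were too small to look for single outlying samples.

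Glp1r, the receptor gene for glucagon-like peptide 1, had an interaction of 4.01 (adjusted p = 0.0167). It had 0.068 and 0.070 CPM in CA1 of B6, 1.73 and 1.05 CPM in CA3 of B6, 23.9 and 29.4 CPM in CA1 of D2 and 29.9 and 26.2 CPM in CA3 of D2. The symbol Gm10503, which could not be placed on 1 gene, had an interaction of 3.14 and a like pattern, with 0.068 and 0.210 CPM in CA1 and 1.59 and 1.75 CPM in CA3 of B6, and 8.50 and 9.23 against 11.98 and 10.3 CPM in D2. Neither was called with B6 library 2 left out, when the interactions were 3.58 (adjusted p = 0.125) and 2.64 (adjusted p = 0.126).

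Arhgap26, a GTPase-activating protein gene, had −2.28 (−2.275 before rounding), with 324 and 318 CPM in CA1 of B6 against 219 and 260 CPM in CA3, and 7.29 and 7.14 CPM in CA1 of D2 against 28.9 and 22.5 CPM in CA3. The symbol belongs to overlapping annotated genes and the level itself differed widely between strains, so its part in the result was not tested. The noncoding Gm38505 had −2.69, with 28.3 and 28.8 CPM in CA1 and 4.61 and 3.32 CPM in CA3 of B6, and 10.2 and 8.11 against 7.74 and 9.37 CPM in D2. Its CA1 level in B6 lay in the Fras1 cluster, and with the Galntl6 cluster alone the interaction was −1.07 (adjusted p = 0.124). The noncoding Tmem132cos had 2.24, with 1.09 and 0.420 CPM in CA1 and 36.8 and 33.2 CPM in CA3 of B6, and 3.31 and 2.89 against 33.0 and 26.5 CPM in D2.

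The remaining transcripts kept 1 direction in both strains and differed in size. These were 4930467D21Rik (1.27), Naa11 (1.19, 1.185 before rounding), Cdh24 (0.81) and Grik4 (0.45). Cdh24, a cadherin gene, had 6.80 and 6.16 CPM in CA1 and 25.7 and 18.5 CPM in CA3 of B6, and 26.7 and 24.3 against 56.2 and 42.7 CPM in D2.

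A peak in an intron of Lsamp (chr16:41308607-41310410) had an interaction of 2.66, with 9.93 and 8.93 CPM in CA1 and 12.3 and 11.2 CPM in CA3 of B6, and 0.904 and 0.781 against 0.245 and 0.0948 CPM in D2. It was not called with D2 library 3 left out (2.18, adjusted p = 0.191), by DESeq2 (2.67, adjusted p = 0.237) or with the Galntl6 cluster alone (1.21, adjusted p = 0.718). In CA1 of D2 its counts lay in the Fras1 cluster, at 2.71 and 2.12 CPM against 0.197 to 0.354 CPM in the other CA1 clusters. A peak in an intron of Sctr (chr1:120021611-120022401) had −2.42, being low in CA1 of D2 only, at 1.07 and 1.25 CPM against 6.42 to 9.75 CPM in the 6 other sums. Mapping of D2 reads at these peaks was not tested.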

How the results depend on the processing

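With a difference of at least 1 on the log2 scale also required, 1699 transcripts, 3101 genes by accessibility and 78163 peaks were called. Leaving out 1 library gave 4861 to 5393 transcripts, 16532 to 17248 genes, 144067 to 149045 peaks, and for the strain difference 222 to 394 transcripts and 429 to 657 peaks. There a strain is left with 1 library, assumed to vary like the others. The lowest peak count came without D2 library 3. Without the replicate block, 5581 transcripts, 18233 genes and 162751 peaks were called, but only 68 transcripts and 1114 peaks for the strain difference, and Hcn2 was the 1 named transcript to lose its call (adjusted p = 0.0509). DESeq2 called 4051 transcripts, 13238 genes and 116291 peaks, and 49 transcripts and 27 peaks for the strain difference, so the strain counts depended on the tool. With the Galntl6 cluster as CA1, the strain difference was called in 255 transcripts and 906 peaks. Scaling by library totals, an alternative chosen after seeing the data, gave 5952 transcripts.

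Over the 10 alternatives run for named transcripts, 1300 of 1354 values stayed on their side of the threshold in the same direction, and for named peaks 321 of 330. Every reversal came with a single CA1 cluster: with Camk2d alone, Spink8 (−0.45), Drd2 (1.05), Slc1a3 (0.22), Grm5 (−0.060) and Gm38505 (−0.33); with Fras1 alone, Scn3b (−0.33), Tenm1 (−0.011), Unc13c (−2.10) and the Coch exon peak (−0.43); with Galntl6 alone, Slc17a7 (0.048), Unc13c (−0.81) and the strain difference of Tmem132cos (−1.23). Of these, only Spink8, Drd2, Scn3b and Unc13c were called in the opposite direction, and the others missed the threshold. The tally covers items named by rule. Nfia and Neurod6, which also turned with the Galntl6 cluster alone, are outside it. Spink8 was not called in the main fit. Single-cluster settings by construction leave out nuclei. Calls of CA1 minus CA3 were also lost without B6 library 2 (Drd2, Slc17a7, Hcn2, Efna1 and Vcan), B6 library 3 (Drd2, Scn2a, Vcan and Gm38505), D2 library 2 (Hcn2, Efna1, Vcan and the Cdh24 promoter peak) or D2 library 3 (Vcan and that peak). Depth limited genes under about 1 CPM, where 0 counts were common.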

Other observations

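Transcripts with large differences tended to lie beside one another. Of the 24 transcripts that met the rule on size, 16 had another of the 24 within 100 kb. Among neighbouring tested genes that were both called, 78.1% of 2720 pairs differed in the same direction, and 82.4% of 1955 pairs less than 100 kb apart did. Where both genes also differed by at least 1 on the log2 scale, the share was 94.6% of 373 pairs. Overlapping genes, whose reads can be shared, are among these pairs.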
